A study of Danio rerio with 9 samples.

Results

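*bmp*-overexpressing zebrafish embryos were compared with *chd*-overexpressing embryos by RNA-sequencing, in 6 of the 9 samples of the study, 3 of each kind. The first kind had been given 10 pg of *bmp2b* mRNA and the second 100 pg of *chd* mRNA, both of zebrafish sequence and both delivered into the fertilized egg before its first division. A further 3 samples had received no mRNA. All embryos were of the TE wild type, and an enzyme, Pronase, had been used to strip the chorion. Each sample pooled 10 whole embryos, frozen at 6.75 h after fertilization, when the uninjected embryos were at shield stage. The injection itself, the dechorionation and the strain were common to both injected groups, while the mass of injected mRNA differed between them, and none of the 9 samples was injected with a control mRNA.

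BMPs are secreted ligands of the TGF-β family that bind serine/threonine kinase receptors and act through phosphorylated Smad1/5/9. In the zebrafish gastrula their signaling is highest ventrally, where it directs cells toward epidermis, blood, pronephros and tail. On the dorsal side the organizer secretes antagonists such as Chordin, which binds BMP ligands outside the cell, and the tissue there becomes neural plate, notochord and prechordal plate. Excess BMP is known to ventralize embryos and excess Chordin to dorsalize them, so that this pair of groups sets the 2 ends of the dorsal-ventral axis against each other.

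The 6 libraries held between 8861308 and 17311551 counts, the shallowest being *chd*-overexpressing replicate 2. Levels are given as counts per 1000000 counts of the library, scaled with TMM factors (CPM), and differences as log2 fold changes of *bmp*- over *chd*-overexpressing embryos with their standard error (SE), from a limma fit to the 6 libraries. Called genes are those with a limma p, adjusted after Benjamini and Hochberg over all 16735 genes tested, under 0.05. Each group had n = 3. The labels do not say whether the pools came from separate clutches, so the p-values measure the spread between these pools. Mitochondrial transcripts took 8.06%, 7.34% and 6.61% of the counts in *bmp*-overexpressing and 8.57%, 5.77% and 4.54% in *chd*-overexpressing libraries, ranges that overlap. The first principal component held 25.4% of the variance and separated the injected groups, and uninjected replicate 1 stood apart from the other libraries on the second. The RNA came from whole embryos, so that fewer cells of a type and less RNA per cell cannot be told apart.

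Both injected genes followed the labels. *bmp2b* (chromosome 20, 45983744-45997757, GRCz10) measured 909, 864 and 709.7 CPM in *bmp*-overexpressing embryos, against 73.2, 81.6 and 77.4 CPM in *chd*-overexpressing embryos, and 106, 98.7 and 117 CPM in uninjected embryos. *chd* (chromosome 15, 46557787-46594810) measured 26.8, 34.8 and 25.8 CPM in *bmp*-overexpressing embryos, against 1759.5, 1654 and 2255 CPM in *chd*-overexpressing embryos, and 193, 216 and 217 CPM in uninjected embryos. Injected and endogenous transcripts of these genes cannot be told apart by their counts.

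Of the 16735 genes tested, 366 were higher (2.19%) and 477 lower (2.85%) in *bmp*- than in *chd*-overexpressing embryos, 5.04% in all. The median log2 fold change over all genes tested was 0.01. In 828 of the 843 called genes the groups did not overlap, against 19.3% of all genes tested (9.42% with *bmp*-overexpressing libraries above and 9.87% with them below). Choosing genes by a small p in these same libraries favors groups that do not overlap. Large differences were more often on the *bmp* side, with 102 genes higher and 78 lower by at least a log2 fold change of 2. The median log2 fold change was 1.09 among the higher and -0.84 among the lower genes. 186 of the higher and 271 of the lower genes were called in each of 12 refits. Leaving out *chd*-overexpressing replicate 3, the deepest of the 6 libraries, left the fewest called genes, 645, with 223 higher and 422 lower. It did not leave the fewest lower genes, and leaving out *bmp*-overexpressing replicate 1 left 666 called genes.

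**Figure D1:**
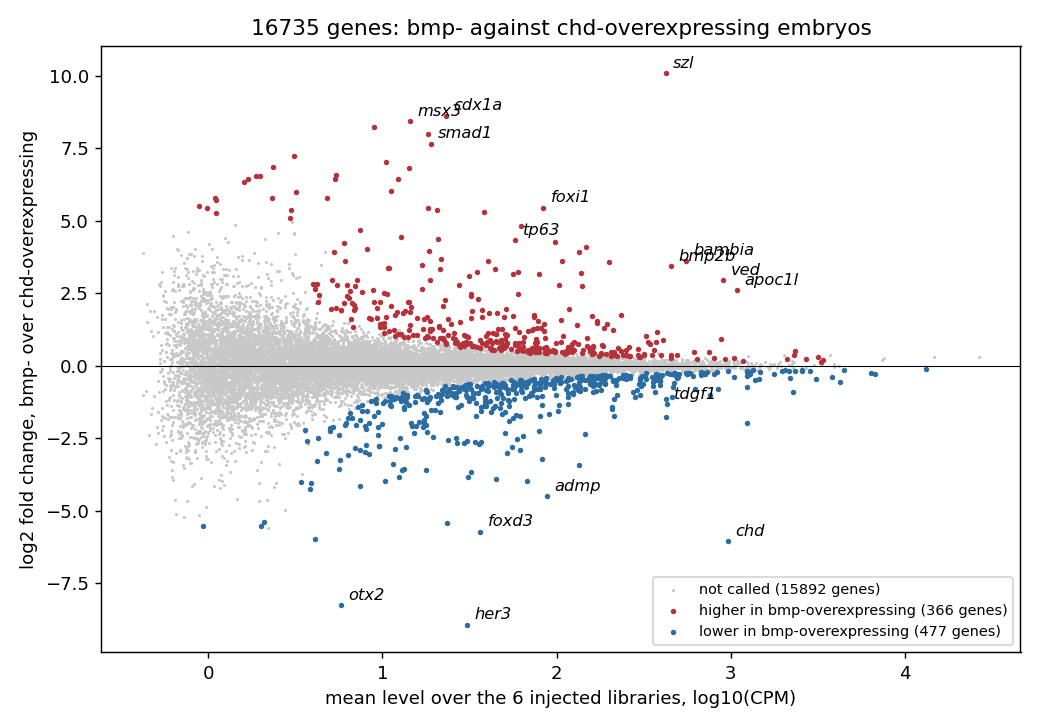
Log2 fold change of *bmp*- over *chd*-overexpressing embryos (y axis) against the mean level over the 6 injected libraries (x axis, log10 CPM) for the 16735 genes tested. Each point is a gene, with the 366 higher genes in red, the 477 lower genes in blue and genes not called in grey. *szl* lies at 10.07, farthest above 0, and *her3* at -8.93, farthest below.

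Called genes were ranked if the groups did not overlap and the higher group had a mean of at least 5 CPM. By that rule the 10 genes with the largest rise were, in order of log2 fold change, *szl*, *cdx1a*, *msx3*, *tbx2a*, *id4*, *smad1*, *dlx1a*, *dlx2a*, *msx1a* and *nog2*. 8 of them encode transcriptional regulators or a Smad, and the other 2, *szl* and *nog2*, encode secreted regulators of BMP signaling. *szl*, or sizzled (chromosome 25, 348505-352985), is a secreted Frizzled-related protein that blocks the Tolloid proteases which cleave Chordin. It measured 807, 876 and 853 CPM in *bmp*-overexpressing embryos, against 1.35, 0.682 and 0.518 CPM in *chd*-overexpressing embryos, and 141, 141 and 155 CPM in uninjected embryos (log2 fold change 10.07 ± 0.81 (SE), adjusted p = 7.85e-11).

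The other genes of this group were close to undetected in *chd*-overexpressing embryos. *cdx1a*, a caudal-type homeobox gene, measured 44.1, 42.0 and 52.6 CPM in *bmp*-overexpressing embryos, against 0.159, 0 and 0.115 CPM in *chd*-overexpressing embryos, a ratio of pooled CPM of 446 (95% counting interval 174 to 1637). *tbx2a*, a T-box repressor, measured 16.2, 14.9 and 22.6 CPM in *bmp*-overexpressing embryos, against 0, 0.114 and 0 CPM in *chd*-overexpressing embryos (adjusted p = 6.71e-04). Its pooled CPM was higher by a factor of 685 (95% counting interval 123 to 27086), and its call was lost without *chd*-overexpressing replicate 3 (adjusted p = 0.059 without *chd*-overexpressing replicate 3). Counting intervals cover counting error alone. The linked homeobox genes *dlx1a* (chromosome 9, 3413972-3419326) and *dlx2a* (chromosome 9, 3425878-3429200) rose together. *dlx1a* measured 4.24, 6.40 and 7.88 CPM in *bmp*-overexpressing embryos, against 0, 0 and 0 CPM in *chd*-overexpressing embryos, at least 79.3-fold higher when the *chd* group is set at a floor of 3 counts over its 3 libraries. That call too was lost when a *chd*-overexpressing library was left out (adjusted p = 0.051, 0.0582 and 0.105 without *chd*-overexpressing replicates 1, 2 and 3). *dlx2a* measured 19.3, 23.6 and 19.3 CPM in *bmp*-overexpressing embryos, against 0.317, 0.568 and 0 CPM in *chd*-overexpressing embryos (adjusted p = 0.00265).

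By the same rule of at least 5 CPM and no overlap, the 10 genes with the largest fall were *her3*, *otx2*, *chd*, *six3b*, *foxd3*, *irx1b*, *admp*, *six7*, *tbx1* and *ntd5*. Of these, *chd* is the gene whose mRNA was injected into the *chd*-overexpressing embryos. *her3*, a hairy-related repressor of the neural plate, measured 0.439, 0.0666 and 0 CPM in *bmp*-overexpressing embryos, against 76.7, 53.2 and 54.1 CPM in *chd*-overexpressing embryos, and 10.4, 10.2 and 13.1 CPM in uninjected embryos. The 7 counts left in the *bmp*-overexpressing group gave a ratio of 361 (95% counting interval 175 to 898) in favor of *chd*-overexpressing embryos. *otx2*, the homeobox gene of the presumptive forebrain and midbrain, had no count in any *bmp*-overexpressing library. It measured 13.2, 11.7 and 9.61 CPM in *chd*-overexpressing embryos, at least 154-fold lower in *bmp*-overexpressing embryos at the 3-count floor (adjusted p = 4.31e-04). *ntd5* fell with few counts, measuring 1.32, 0.200 and 0.239 CPM in *bmp*-overexpressing embryos, against 7.93, 6.02 and 7.71 CPM in *chd*-overexpressing embryos, and its call was lost without any 1 of the *bmp*-overexpressing libraries (adjusted p = 0.121, 0.0821 and 0.0523 without *bmp*-overexpressing replicates 1, 2 and 3).

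The called genes were grouped by programme. The 28 lists named 563 genes with a row, of which 391 passed the filter on low counts, and 66 of these were higher and 84 lower. Over all genes tested 2.19% were higher and 2.85% lower. The lists were written with earlier results of these data known, which favors called members. Among called genes, the lists of BMP pathway genes other than receptors and of tail and epidermal genes held more higher than lower ones, and lists of organizer, anterior neural, Nodal, FGF, Wnt and endoderm genes more lower than higher ones. The lists share members, and such a gene is counted in each of its lists. *her3* has the lowest log2 fold change of the neural, Delta and pluripotency lists. *otx2* has the lowest of the organizer and anterior neural lists. Most called genes were in no list.

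**Figure D2:**
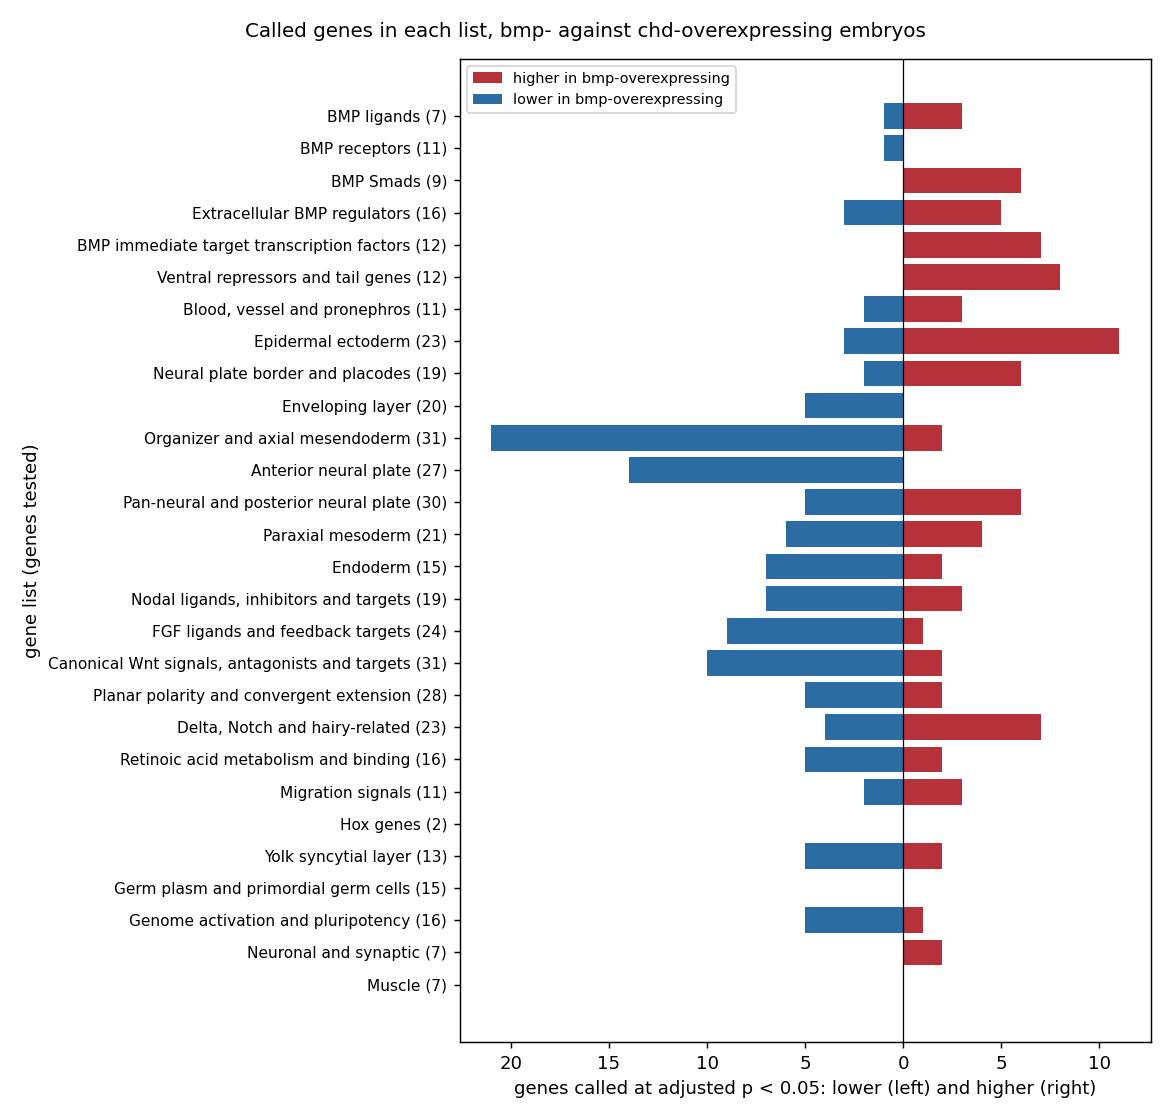
Number of genes in each of 28 lists that were lower (blue, left of 0) or higher (red, right of 0) in *bmp*- than in *chd*-overexpressing embryos at adjusted p under 0.05, with the number tested in parentheses. The organizer list has the most lower genes, 21, the injected *chd* among them, and the epidermal list the most higher genes, 11.

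Of 7 BMP ligand genes tested, 3 were higher, the injected *bmp2b* among them, and 1 was lower, with a median log2 fold change of 1.08. Without the injected genes 2 of 6 were higher and the median was 0.57. The median with 1 library left out lay between 0.45 (without *chd*-overexpressing replicate 1) and 1.22 (without *chd*-overexpressing replicate 3). Fitting all 3 groups gave 0.63 and no low-count filter 0.20. *bmp4* measured 142, 143 and 144 CPM in *bmp*-overexpressing embryos, against 16.0, 16.3 and 16.4 CPM in *chd*-overexpressing embryos, and 43.9, 76.6 and 88.6 CPM in uninjected embryos, so that the groups lay on either side of the uninjected level (log2 fold change 3.14 ± 0.18 (SE), adjusted p = 4.84e-14). *bmp7a*, the heterodimer partner of Bmp2b in the zebrafish gastrula, measured 67.0, 56.3 and 54.6 CPM in *bmp*-overexpressing embryos, against 18.2, 39.4 and 32.0 CPM in *chd*-overexpressing embryos (log2 fold change 1.08 ± 0.20 (SE), adjusted p = 3.23e-04). *admp*, a BMP-like ligand made on the dorsal side, moved the other way and measured 8.64, 9.59 and 4.299 CPM in *bmp*-overexpressing embryos, against 176, 179.7 and 151 CPM in *chd*-overexpressing embryos (log2 fold change -4.51 ± 0.28 (SE), adjusted p = 2.01e-13).

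The 11 receptor and co-receptor genes tested held 0 higher and 1 lower gene, and their median was 0.07. With 1 library left out, the median lay between -0.11 (without *chd*-overexpressing replicate 3) and 0.10 (without *bmp*-overexpressing replicate 2). The lower gene was *rgma*, a repulsive guidance molecule that serves as a BMP co-receptor, at 24.5, 24.1 and 18.2 CPM in *bmp*-overexpressing embryos, against 81.9, 83.3 and 86.4 CPM in *chd*-overexpressing embryos (log2 fold change -1.91 ± 0.17 (SE), adjusted p = 1.15e-09). *bmpr1aa* and *acvr1l*, encoding type I receptors, were not called. *bmpr1aa* averaged 47.4 ± 5.21 CPM in *bmp*-overexpressing and 44.8 ± 6.71 CPM in *chd*-overexpressing embryos (mean ± SD, as in all such pairs of values). *acvr1l* averaged 207 ± 16.4 CPM in *bmp*-overexpressing and 195 ± 24.5 CPM in *chd*-overexpressing embryos. At an unadjusted p under 0.05 limma gave 1 higher and 2 lower receptor genes, limma-trend called 0 higher and 2 lower, and without *bmp*-overexpressing replicate 2 or *chd*-overexpressing replicate 3 2 were called lower.

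All 3 receptor-activated Smads of the BMP branch were higher, and 6 of 9 Smad-related genes in all, with none lower, also by limma-trend or at an unadjusted p, and a median of 3.24. *smad1* measured 35.4, 40.4 and 37.2 CPM in *bmp*-overexpressing embryos, against 0.0793, 0 and 0.748 CPM in *chd*-overexpressing embryos, and 6.30, 10.5 and 11.8 CPM in uninjected embryos (adjusted p = 8.62e-04). *smad9* measured 33.7, 37.6 and 35.6 CPM in *bmp*-overexpressing embryos, against 1.82, 0.455 and 0.575 CPM in *chd*-overexpressing embryos (log2 fold change 5.42 ± 0.80 (SE), adjusted p = 1.35e-05). Its locus overlaps that of *rfxap*, and the libraries carried no strand, so counts of the 2 genes may be shared. *smad5*, the family member supplied maternally, differed least, at 210.4, 221 and 248 CPM in *bmp*-overexpressing embryos, against 121, 124 and 166 CPM in *chd*-overexpressing embryos (log2 fold change 0.70 ± 0.11 (SE), adjusted p = 4.66e-05). The inhibitory Smads, which block receptor signaling from within the cell, were all higher. *smad7* measured 195, 228 and 174 CPM in *bmp*-overexpressing embryos, against 17.6, 14.3 and 16.2 CPM in *chd*-overexpressing embryos (log2 fold change 3.62 ± 0.20 (SE), adjusted p = 1.54e-14). *smad6a* measured 59.4, 61.0 and 70.8 CPM in *bmp*-overexpressing embryos, against 6.03, 5.57 and 7.94 CPM in *chd*-overexpressing embryos (log2 fold change 3.24 ± 0.28 (SE), adjusted p = 5.93e-10). Its paralog *smad6b* measured 20.8, 24.8 and 19.4 CPM in *bmp*-overexpressing embryos, against 0, 1.02 and 0.863 CPM in *chd*-overexpressing embryos (adjusted p = 0.00223). The co-Smad gene *smad4a* was not called (log2 fold change -0.25, adjusted p = 0.454).

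Among 16 extracellular regulators, 5 were higher and 3 lower, with a median of 0.69. Without *chd*-overexpressing replicate 3 the count of higher genes was 3. The lower genes were *nog1*, *sfrp1a* and the injected *chd*. With the injected genes left out, 2 of 15 were lower and the median was 0.74. *nog1*, a Noggin that binds BMP ligands, measured 3.95, 1.33 and 6.85 CPM in *bmp*-overexpressing embryos, against 33.7, 14.8 and 21.0 CPM in *chd*-overexpressing embryos (log2 fold change -2.82 ± 0.47 (SE), adjusted p = 1.06e-04). Its paralog *nog2* moved in the opposite direction, at 12.1, 8.93 and 11.1 CPM in *bmp*-overexpressing embryos, against 0, 0.341 and 0.0575 CPM in *chd*-overexpressing embryos and 0, 0.043 and 0.144 CPM in uninjected embryos, with adjusted p = 0.00663. That call was lost when a *chd*-overexpressing library was left out (adjusted p = 0.0583, 0.0528 and 0.155 without *chd*-overexpressing replicates 1, 2 and 3). *bambia*, a transmembrane pseudoreceptor that inhibits BMP signaling, measured 1107, 988 and 978 CPM in *bmp*-overexpressing embryos, against 87.7, 79.0 and 84.3 CPM in *chd*-overexpressing embryos (log2 fold change 3.61 ± 0.10 (SE), adjusted p = 1.29e-21). *bmper*, the homolog of crossveinless, measured 44.1, 40.8 and 37.1 CPM in *bmp*-overexpressing embryos, against 22.0, 12.7 and 23.5 CPM in *chd*-overexpressing embryos (log2 fold change 1.04 ± 0.21 (SE), adjusted p = 0.00144). *bmp1a*, a Tolloid-family protease that cleaves Chordin, had a log2 fold change of 0.56, and the call did not hold without *chd*-overexpressing replicate 3 (adjusted p = 0.0535 without *chd*-overexpressing replicate 3).

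Transcription factors that BMP is known to induce directly were higher in 7 of 12 cases and lower in none, also by limma-trend or at an unadjusted p, with a median of 1.40, which was 2.203 without *bmp*-overexpressing replicate 3. Without *chd*-overexpressing replicate 3 the count was 4. *id2a*, an inhibitor of basic helix-loop-helix factors, measured 129, 120.3 and 109.8 CPM in *bmp*-overexpressing embryos, against 5.0, 6.71 and 2.99 CPM in *chd*-overexpressing embryos (log2 fold change 4.81 ± 0.33 (SE), adjusted p = 2.63e-12). *id4* measured 36.7, 32.9 and 39.8 CPM in *bmp*-overexpressing embryos, against 0.159, 0.114 and 0.0575 CPM in *chd*-overexpressing embryos (adjusted p = 6.20e-04). *id1* and *id3* did not follow them. *id1* averaged 454 ± 69.2 CPM in *bmp*-overexpressing and 393 ± 51.0 CPM in *chd*-overexpressing embryos and *id3* averaged 106 ± 14.6 CPM in *bmp*-overexpressing and 96.6 ± 22.3 CPM in *chd*-overexpressing embryos, neither called (adjusted p = 0.361 and 0.721). Of the muscle segment homeobox genes, *msx3* measured 28.2, 28.5 and 29.5 CPM in *bmp*-overexpressing embryos, against 0.0793, 0 and 0.0575 CPM in *chd*-overexpressing embryos. *msx1a* measured 25.5, 32.3 and 25.8 CPM in *bmp*-overexpressing embryos, against 0, 0.568 and 0.518 CPM in *chd*-overexpressing embryos. These genes mark the border of the neural plate and were called in all refits. *msx1b* had a log2 fold change of 1.74, and its call was lost without *chd*-overexpressing replicate 3 (adjusted p = 0.0617 without *chd*-overexpressing replicate 3).

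Ventral repressors and tail genes were higher in 8 of 12 cases, with none lower and a median of 0.79, and each refit gave 8 higher and 0 lower, as did an unadjusted p under 0.05. The median was 0.48 with no low-count filter. *ved*, one of the homeobox repressors that restrict the organizer, measured 1452, 1674 and 1690.5 CPM in *bmp*-overexpressing embryos, against 206, 179 and 229.7 CPM in *chd*-overexpressing embryos, and 718, 774 and 795 CPM in uninjected embryos (log2 fold change 2.95 ± 0.09 (SE), adjusted p = 2.30e-21). *vox*, a repressor of the same family, differed by less, at 295, 311 and 274 CPM in *bmp*-overexpressing embryos, against 207, 218 and 191 CPM in *chd*-overexpressing embryos (log2 fold change 0.54 ± 0.09 (SE), adjusted p = 8.77e-05). The locus of *vox* overlaps that of *sirt1*, whose counts cannot be separated by strand. *eve1*, the even-skipped gene of the tail, measured 265, 229 and 261 CPM in *bmp*-overexpressing embryos, against 15.8, 15.12 and 18.5 CPM in *chd*-overexpressing embryos (log2 fold change 3.91 ± 0.19 (SE), adjusted p = 3.14e-16). *cdx4*, which controls posterior Hox genes, measured 270.1, 238 and 223 CPM in *bmp*-overexpressing embryos, against 42.8, 36.3 and 32.3 CPM in *chd*-overexpressing embryos (log2 fold change 2.74 ± 0.15 (SE), adjusted p = 5.21e-15). *wnt8-2*, a Wnt ligand of the ventrolateral margin, measured 209, 209 and 143 CPM in *bmp*-overexpressing embryos, against 85.0, 79.9 and 56.4 CPM in *chd*-overexpressing embryos (log2 fold change 1.40 ± 0.15 (SE), adjusted p = 4.41e-08). Of 49 Hox genes listed, 2 passed the filter on low counts, and 0 were called, also by limma-trend or at an unadjusted p. With 5.04% of all genes tested called, 0 calls among 2 genes says little.

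**Figure D3:**
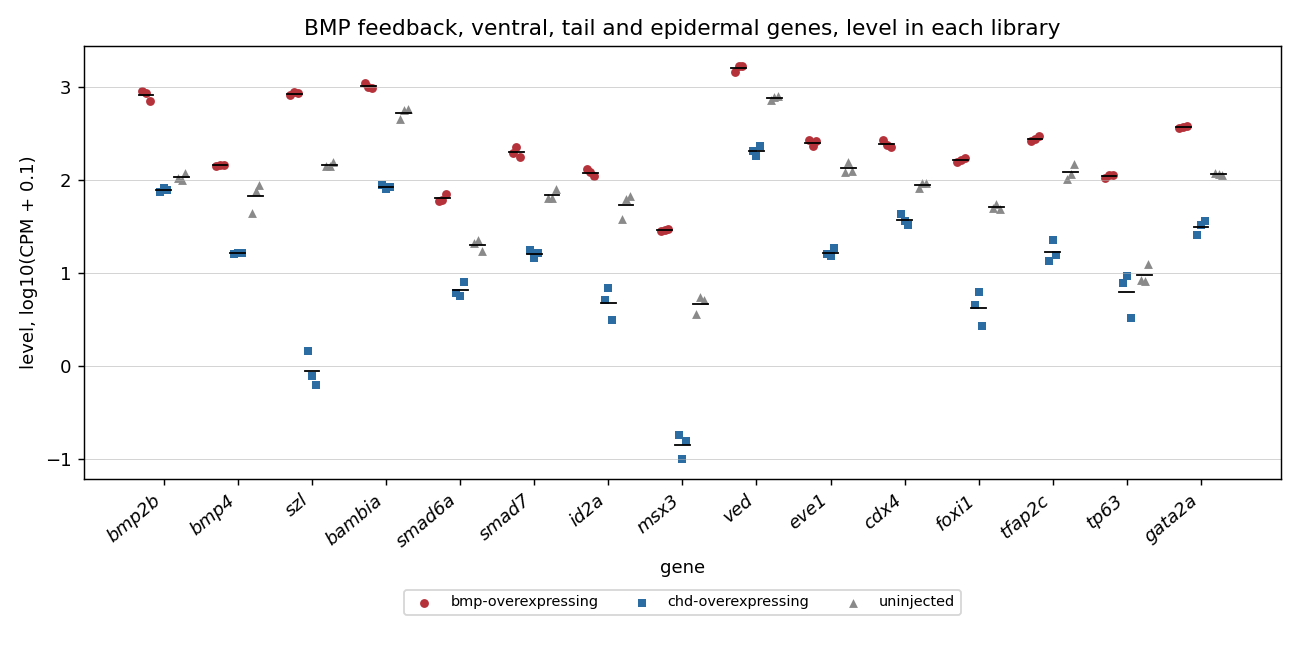
Level of 15 BMP feedback, ventral, tail and epidermal genes in each library (y axis, log10 of CPM plus 0.1), for *bmp*-overexpressing (red circles), *chd*-overexpressing (blue squares) and uninjected embryos (grey triangles), with black bars for the mean of 3. In each of the 15 genes, the injected *bmp2b* among them, the red points lie above the blue points without overlap.

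The epidermal list was the largest block of higher genes, with 11 of 23 higher and 3 lower and a median of 0.36, which was 0.63 without *chd*-overexpressing replicate 3. The count of lower genes was 1 without *bmp*-overexpressing replicate 1, with limma-trend or with all 3 groups in the fit. *foxi1*, a forkhead factor of ventral ectoderm, measured 157, 162 and 172 CPM in *bmp*-overexpressing embryos, against 4.36, 6.14 and 2.59 CPM in *chd*-overexpressing embryos (log2 fold change 5.45 ± 0.35 (SE), adjusted p = 3.93e-13). *tp63*, a transcription factor of epidermal stem cells, measured 104, 112 and 112 CPM in *bmp*-overexpressing embryos, against 7.77, 9.21 and 3.16 CPM in *chd*-overexpressing embryos, and 8.33, 8.0 and 12.4 CPM in uninjected embryos (log2 fold change 4.33 ± 0.31 (SE), adjusted p = 5.25e-12). For *tp63* the *chd*-overexpressing and uninjected libraries overlapped. *tfap2c* measured 261, 275 and 298 CPM in *bmp*-overexpressing embryos, against 13.5, 22.5 and 15.5 CPM in *chd*-overexpressing embryos (log2 fold change 4.102 ± 0.19 (SE), adjusted p = 1.88e-16), and its relative *tfap2a* measured 244, 251 and 262 CPM in *bmp*-overexpressing embryos, against 93.4, 87.7 and 81.7 CPM in *chd*-overexpressing embryos (log2 fold change 1.54 ± 0.11 (SE), adjusted p = 2.60e-12). Both encode AP-2 factors of non-neural ectoderm and neural crest. *gata2a*, used in ventral ectoderm and in blood precursors, measured 360.2, 373 and 375 CPM in *bmp*-overexpressing embryos, against 25.6, 32.4 and 36.0 CPM in *chd*-overexpressing embryos (log2 fold change 3.56 ± 0.14 (SE), adjusted p = 5.62e-18). In each of these ectodermal genes the lowest *bmp*-overexpressing library lay above the highest *chd*-overexpressing one. The Krüppel-like genes *klf2a* and *klf2b* rose by 3.32 and 3.2002 on the log2 scale. *apoc1l*, an apolipoprotein gene, measured 2045, 1749.5 and 1760.5 CPM in *bmp*-overexpressing embryos, against 306, 338 and 287 CPM in *chd*-overexpressing embryos (log2 fold change 2.60 ± 0.08 (SE), adjusted p = 2.30e-21). *crabp2b*, which encodes a retinoic acid binding protein, measured 362, 376 and 344 CPM in *bmp*-overexpressing embryos, against 113, 117 and 99.7 CPM in *chd*-overexpressing embryos (log2 fold change 1.74 ± 0.10 (SE), adjusted p = 2.56e-14). *znfl2b*, a zinc finger gene outside the lists that the study names, measured 171, 204 and 181 CPM in *bmp*-overexpressing embryos, against 7.61, 9.55 and 11.3 CPM in *chd*-overexpressing embryos (log2 fold change 4.28 ± 0.24 (SE), adjusted p = 2.42e-14).

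The 3 lower genes of the epidermal list were keratins that are also markers of the enveloping layer, the outermost sheet of the embryo. *krt5* measured 1101, 1131 and 1152 CPM in *bmp*-overexpressing embryos, against 1683, 1749 and 1460.2 CPM in *chd*-overexpressing embryos (log2 fold change -0.50 ± 0.06 (SE), adjusted p = 8.75e-08). *krt8* and *krt4* had log2 fold changes of -0.18 and -0.15, and both calls were lost without *bmp*-overexpressing replicate 1. For *krt8*, adjusted p = 0.118 without *bmp*-overexpressing replicate 1 and 0.0771 with limma-trend and 0.216 with all 3 groups in the fit. For *krt4*, adjusted p = 0.22 without *bmp*-overexpressing replicate 1 and 0.207 without *chd*-overexpressing replicate 1 and 0.173 with limma-trend and 0.482 with all 3 groups in the fit. The enveloping layer list held 0 higher and 5 lower genes of 20 (0 and 8 at an unadjusted p under 0.05, 0 and 3 by limma-trend), with a median of -0.12, and its summed level ranged from 9969 to 10695 CPM in *bmp*-overexpressing and from 10943 to 12423 CPM in *chd*-overexpressing libraries. Without *bmp*-overexpressing replicate 1 the count was 1, without *chd*-overexpressing replicate 1 it was 3, and without *chd*-overexpressing replicate 3 it was 8. The median with 1 library left out lay between -0.21 (without *chd*-overexpressing replicate 3) and -0.05 (without *chd*-overexpressing replicate 1). Of the 6 defining markers of this layer *krt18*, *cldne* and *cldnf* were not called. *cldne*, a claudin of tight junctions, averaged 701 ± 23.8 CPM in *bmp*-overexpressing and 699 ± 23.5 CPM in *chd*-overexpressing embryos. The part of this layer in the epidermal result was not tested.

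Genes of the neural plate border and placodes were higher in 6 of 19 cases and lower in 2, with a median of 0.66. The median was 0.18 without *chd*-overexpressing replicate 2, 0.14 with all 3 groups in the fit and 0.37 with no low-count filter. *dlx3b*, a preplacodal homeobox gene, measured 11.8, 30.1 and 18.2 CPM in *bmp*-overexpressing embryos, against 3.01, 0.796 and 1.78 CPM in *chd*-overexpressing embryos (log2 fold change 3.38 ± 0.67 (SE), adjusted p = 9.53e-04). The 2 lower members, *foxd3* and *snai2*, are neural crest regulators, and *foxd3* is also made in the organizer and the early blastoderm. *foxd3* measured 3.07, 1.87 and 0.318 CPM in *bmp*-overexpressing embryos, against 71.8, 68.5 and 73.6 CPM in *chd*-overexpressing embryos (log2 fold change -5.72 ± 0.65 (SE), adjusted p = 1.07e-07). *snai2* measured 26.6, 18.5 and 33.9 CPM in *bmp*-overexpressing embryos, against 94.7, 67.6 and 97.9 CPM in *chd*-overexpressing embryos (log2 fold change -1.80 ± 0.19 (SE), adjusted p = 3.96e-08).

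Of 11 blood, vessel and pronephros genes 3 were higher and 2 lower. Their median was -0.35 but turned positive in each fit without 1 library, from 0.03 (without *bmp*-overexpressing replicate 3) to 0.59 (without *bmp*-overexpressing replicate 2). The higher genes were *gata2a*, *gata3* and *drl*. *gata3* measured 203, 254 and 223 CPM in *bmp*-overexpressing embryos, against 147, 137 and 140.2 CPM in *chd*-overexpressing embryos (log2 fold change 0.68 ± 0.10 (SE), adjusted p = 2.09e-05). *drl*, a zinc finger gene of lateral plate mesoderm, measured 12.8, 8.79 and 21.0 CPM in *bmp*-overexpressing embryos, against 6.50, 1.70 and 4.66 CPM in *chd*-overexpressing embryos, with adjusted p = 0.0268. Its call did not hold in several refits (adjusted p = 0.091 without *bmp*-overexpressing replicate 3 and 0.0797 and 0.13 without *chd*-overexpressing replicates 2 and 3 and 0.0555 with no low-count filter). The lower genes were *lhx1a* and *hhex*, homeobox genes of which each is also used in the organizer or in dorsal endoderm. *hhex* measured 6.29, 5.86 and 4.86 CPM in *bmp*-overexpressing embryos, against 28.9, 17.4 and 24.8 CPM in *chd*-overexpressing embryos (log2 fold change -2.07 ± 0.32 (SE), adjusted p = 3.53e-05). *tal1*, which specifies blood, averaged 0.495 ± 0.676 CPM in *bmp*-overexpressing and 0.820 ± 0.834 CPM in *chd*-overexpressing embryos and was not called. *gata1a* and *fli1a* did not pass the filter on low counts.

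Organizer and axial mesendoderm genes made the largest block of lower genes. Of 31 tested, 21 were lower, the injected *chd* among them, and 2 higher, with a median log2 fold change of -1.57. Refits gave between 18 and 22 lower genes. Without the injected genes 20 of 30 were lower and the median was -1.54. *gsc*, the homeobox gene of the prechordal plate, measured 13.3, 13.9 and 13.8 CPM in *bmp*-overexpressing embryos, against 95.7, 105 and 89.4 CPM in *chd*-overexpressing embryos, and 59.96, 43.0 and 48.6 CPM in uninjected embryos (log2 fold change -2.79 ± 0.20 (SE), adjusted p = 5.30e-12). *noto*, which specifies notochord, measured 20.9, 16.2 and 15.2 CPM in *bmp*-overexpressing embryos, against 95.2, 114 and 95.7 CPM in *chd*-overexpressing embryos, and 58.6, 44.2 and 50.0 CPM in uninjected embryos (log2 fold change -2.52 ± 0.19 (SE), adjusted p = 1.62e-11). *foxa3*, a forkhead factor of axial mesendoderm, measured 86.1, 123 and 85.3 CPM in *bmp*-overexpressing embryos, against 315, 315 and 349 CPM in *chd*-overexpressing embryos (log2 fold change -1.75 ± 0.11 (SE), adjusted p = 7.14e-13). *ism1*, encoding the secreted protein isthmin, measured 43.3, 67.3 and 34.5 CPM in *bmp*-overexpressing embryos, against 253, 206 and 268 CPM in *chd*-overexpressing embryos (log2 fold change -2.37 ± 0.16 (SE), adjusted p = 1.19e-12). *frzb*, a secreted Wnt antagonist, measured 1.098, 4.60 and 1.11 CPM in *bmp*-overexpressing embryos, against 28.0, 21.3 and 21.5 CPM in *chd*-overexpressing embryos (log2 fold change -3.61 ± 0.55 (SE), adjusted p = 2.34e-05). *tbx1*, a T-box gene, measured 1.54, 1.199 and 0.159 CPM in *bmp*-overexpressing embryos, against 18.7, 5.57 and 17.2 CPM in *chd*-overexpressing embryos (adjusted p = 0.0101) and lost its call without *bmp*-overexpressing replicate 1 (adjusted p = 0.0612 without *bmp*-overexpressing replicate 1).

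The 2 higher genes of the organizer list were *ta* and *lft1*, and whether their place of expression played a part was not tested. *ta*, the Brachyury gene, is transcribed all around the margin, and it measured 869.9, 846 and 908 CPM in *bmp*-overexpressing embryos, against 609, 661 and 631 CPM in *chd*-overexpressing embryos (log2 fold change 0.47 ± 0.06 (SE), adjusted p = 7.21e-07). *lft1*, a Nodal inhibitor of the margin, measured 59.6, 68.8 and 54.2 CPM in *bmp*-overexpressing embryos, against 41.7, 28.2 and 37.6 CPM in *chd*-overexpressing embryos (log2 fold change 0.75 ± 0.17 (SE), adjusted p = 0.00371). Its paralog *lft2* was lower, at 16.9, 24.4 and 29.5 CPM in *bmp*-overexpressing embryos, against 47.3, 55.8 and 58.1 CPM in *chd*-overexpressing embryos (log2 fold change -1.22 ± 0.19 (SE), adjusted p = 4.39e-05).

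The anterior neural plate list held 14 lower and 0 higher genes among 27 tested (17 and 1 at an unadjusted p under 0.05, 15 and 0 by limma-trend), with a median of -2.11. *otx1a*, a paralog of *otx2*, measured 19.5, 15.4 and 12.9 CPM in *bmp*-overexpressing embryos, against 149, 140.4 and 154 CPM in *chd*-overexpressing embryos (log2 fold change -3.23 ± 0.19 (SE), adjusted p = 4.84e-14). The Iroquois homeobox gene *irx1b* measured 2.12, 1.67 and 0.239 CPM in *bmp*-overexpressing embryos, against 49.9, 39.4 and 48.1 CPM in *chd*-overexpressing embryos (log2 fold change -5.44 ± 0.74 (SE), adjusted p = 3.67e-06), and *irx7* measured 17.5, 10.1 and 17.4 CPM in *bmp*-overexpressing embryos, against 110.1, 107 and 109 CPM in *chd*-overexpressing embryos (log2 fold change -2.91 ± 0.20 (SE), adjusted p = 3.44e-12). *foxb1a*, a forkhead factor of the neural plate, measured 3.59, 9.66 and 4.299 CPM in *bmp*-overexpressing embryos, against 73.3, 88.7 and 88.0 CPM in *chd*-overexpressing embryos (log2 fold change -3.92 ± 0.32 (SE), adjusted p = 1.41e-10). The sine oculis homeobox genes *six3b* and *six7*, used in the forebrain, rested on few counts. *six3b* measured 0, 0.133 and 0.318 CPM in *bmp*-overexpressing embryos, against 6.42, 6.48 and 11.2 CPM in *chd*-overexpressing embryos, and its adjusted p of 0.02 was lost in several refits (adjusted p = 0.117, 0.166 and 0.091 without *bmp*-overexpressing replicates 1, 2 and 3 and 0.0529 and 0.0816 without *chd*-overexpressing replicates 2 and 3). *six7* measured 0.805, 0.333 and 0.159 CPM in *bmp*-overexpressing embryos, against 7.14, 5.0 and 9.72 CPM in *chd*-overexpressing embryos, with an adjusted p of 0.0236 that was also lost (adjusted p = 0.132, 0.105 and 0.055 without *bmp*-overexpressing replicates 1, 2 and 3 and 0.0567 without *chd*-overexpressing replicate 3).

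**Figure D4:**
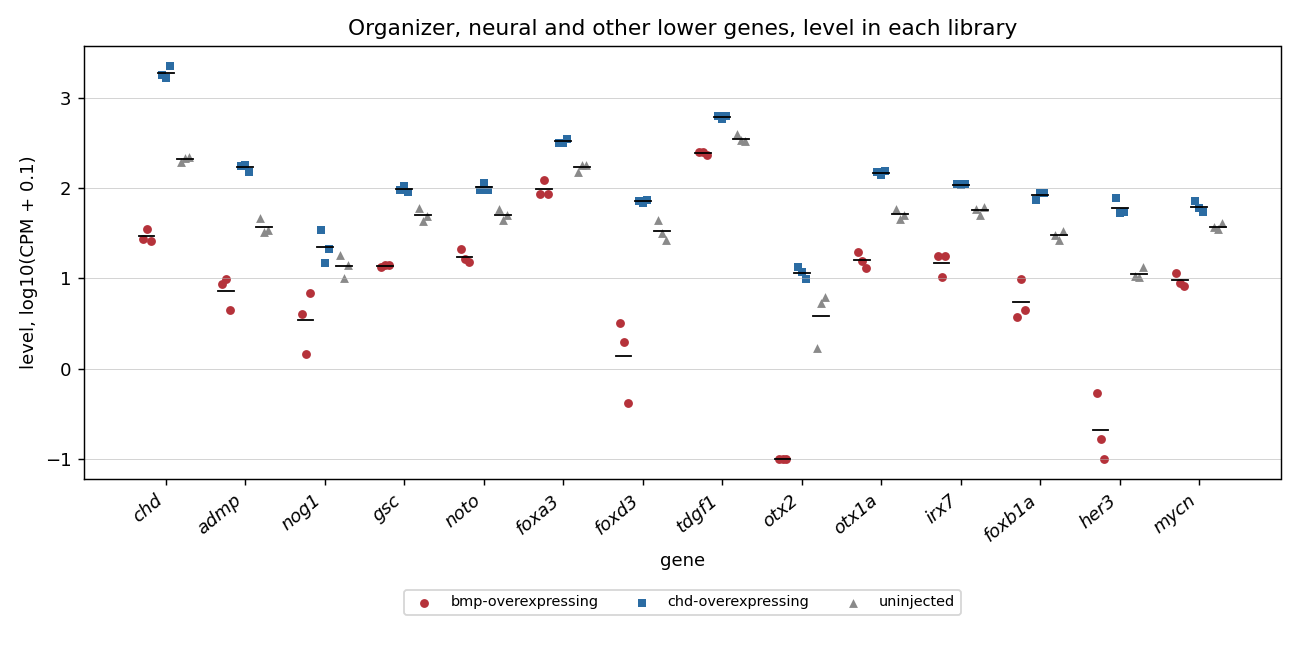
Level of 14 lower genes, of the organizer, the neural plate and other lists, in each library (y axis, log10 of CPM plus 0.1), for *bmp*-overexpressing (red circles), *chd*-overexpressing (blue squares) and uninjected embryos (grey triangles), with black bars for the mean of 3. In each of the 14 genes, the injected *chd* among them, the red points lie below the blue points without overlap. *otx2* has no count in any *bmp*-overexpressing library.

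The wider neural list held 6 higher and 5 lower genes of 30, with a median of 0.01. With 1 library left out, the median lay between -0.02 (without *chd*-overexpressing replicate 2) and 0.22 (without *chd*-overexpressing replicate 3). The pan-neural factors *sox2*, *sox3* and *sox19a* were not called. *sox19a* had a log2 fold change of -0.24 (adjusted p = 0.076) and was called lower in 3 of 12 refits. Its adjusted p was 0.0439 with no low-count filter, 0.0286 with a replicate block and 0.0259 without *chd*-overexpressing replicate 2. *sox3* averaged 470.1 ± 45.1 CPM in *bmp*-overexpressing and 403 ± 12.7 CPM in *chd*-overexpressing embryos, with adjusted p = 0.135, or 0.0168 without *bmp*-overexpressing replicate 2 and 0.0471 with a replicate block. *sox2* averaged 52.1 ± 4.14 CPM in *bmp*-overexpressing and 59.4 ± 3.31 CPM in *chd*-overexpressing embryos (adjusted p = 0.612). The lower members included the hairy-related genes *her3*, *her5* and *her11*, which hold back neurogenesis in the neural plate. *her11* measured 1.68, 1.67 and 2.79 CPM in *bmp*-overexpressing embryos, against 22.4, 20.3 and 20.4 CPM in *chd*-overexpressing embryos (log2 fold change -3.40 ± 0.49 (SE), adjusted p = 8.01e-06). The higher members were genes of neurogenesis and lateral inhibition. Without *bmp*-overexpressing replicate 1 or *chd*-overexpressing replicate 3 the count of higher genes was 4. *insm1b*, a zinc finger gene of newborn neurons, measured 33.2, 45.8 and 38.5 CPM in *bmp*-overexpressing embryos, against 4.76, 0.455 and 1.78 CPM in *chd*-overexpressing embryos (log2 fold change 4.37 ± 0.61 (SE), adjusted p = 5.00e-06). *elavl3*, which marks early neurons, measured 30.7, 34.8 and 18.2 CPM in *bmp*-overexpressing embryos, against 5.87, 9.43 and 2.36 CPM in *chd*-overexpressing embryos (log2 fold change 2.64 ± 0.40 (SE), adjusted p = 2.21e-05). *dld*, a Delta ligand, measured 209, 196 and 187 CPM in *bmp*-overexpressing embryos, against 108, 101 and 98.9 CPM in *chd*-overexpressing embryos (log2 fold change 0.95 ± 0.11 (SE), adjusted p = 7.81e-08).

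The Delta, Notch and hairy-related list as a whole held 7 higher and 4 lower genes of 23, with a median of 0.23, which was 0.13 without *chd*-overexpressing replicate 2 and 0.10 with no low-count filter. *dlc*, a Delta ligand of the segmentation clock, measured 245, 268 and 223 CPM in *bmp*-overexpressing embryos, against 74.1, 76.8 and 76.4 CPM in *chd*-overexpressing embryos (log2 fold change 1.70 ± 0.11 (SE), adjusted p = 1.27e-12), and *jag1a*, another Notch ligand, measured 21.7, 11.3 and 11.5 CPM in *bmp*-overexpressing embryos, against 2.06, 3.75 and 3.68 CPM in *chd*-overexpressing embryos (log2 fold change 2.19 ± 0.46 (SE), adjusted p = 0.00194). *her7*, a clock gene of presomitic mesoderm, measured 71.4, 67.9 and 68.0 CPM in *bmp*-overexpressing embryos, against 37.5, 34.9 and 30.03 CPM in *chd*-overexpressing embryos (log2 fold change 1.05 ± 0.16 (SE), adjusted p = 1.79e-05), whereas *her8a* measured 51.4, 46.4 and 29.5 CPM in *bmp*-overexpressing embryos, against 133, 157 and 123 CPM in *chd*-overexpressing embryos (log2 fold change -1.68 ± 0.16 (SE), adjusted p = 3.07e-09). Of 7 neuronal genes tested, 2 were higher, *elavl3* and *tubb5* (log2 fold change of *tubb5* 0.78, adjusted p = 0.00104), and 0 lower, with a median of 0.37. With 1 library left out, that median lay between -0.39 (without *bmp*-overexpressing replicate 2) and 0.73 (without *chd*-overexpressing replicate 3). The summed level of the 14 listed neuronal genes, the 2 called ones included, ranged from 90.1 to 118 CPM in *bmp*-overexpressing and from 54.7 to 56.6 CPM in *chd*-overexpressing libraries. *snap25a*, which marks mature neurons, averaged 0.481 ± 0.668 CPM in *bmp*-overexpressing and 0.956 ± 0.347 CPM in *chd*-overexpressing embryos and was not called. Neurons, for which *elavl3* and *snap25a* were listed as markers, are cells that a shield-stage embryo should lack. The part of neurons or neuronal precursors in these results was not tested.

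Paraxial mesoderm genes split, with 4 higher and 6 lower of 21 and a median of -0.36. The median with 1 library left out lay between -0.70 (without *bmp*-overexpressing replicate 1) and -0.17 (without *bmp*-overexpressing replicate 3). *tbx16*, a T-box gene needed for trunk mesoderm, measured 752, 676 and 729 CPM in *bmp*-overexpressing embryos, against 480.4, 532 and 530.4 CPM in *chd*-overexpressing embryos (log2 fold change 0.49 ± 0.07 (SE), adjusted p = 3.43e-06). *tbx6l* measured 63.7, 50.2 and 44.3 CPM in *bmp*-overexpressing embryos, against 25.4, 23.9 and 26.9 CPM in *chd*-overexpressing embryos (log2 fold change 1.03 ± 0.18 (SE), adjusted p = 2.62e-04). In contrast *msgn1*, a basic helix-loop-helix gene of presomitic mesoderm, measured 53.5, 31.2 and 43.6 CPM in *bmp*-overexpressing embryos, against 102, 66.8 and 98.9 CPM in *chd*-overexpressing embryos (log2 fold change -1.12 ± 0.18 (SE), adjusted p = 3.65e-05). *ripply1*, which sets somite boundaries, measured 9.37, 5.86 and 5.65 CPM in *bmp*-overexpressing embryos, against 49.5, 30.8 and 41.3 CPM in *chd*-overexpressing embryos (log2 fold change -2.58 ± 0.30 (SE), adjusted p = 1.89e-07). *aldh1a2*, the enzyme that makes retinoic acid, measured 37.1, 31.1 and 29.3 CPM in *bmp*-overexpressing embryos, against 82.5, 56.7 and 84.7 CPM in *chd*-overexpressing embryos (log2 fold change -1.22 ± 0.17 (SE), adjusted p = 6.59e-06).

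Endoderm genes were lower in 7 of 15 cases and higher in 2, with a median of -0.54. Without *bmp*-overexpressing replicate 2 or *chd*-overexpressing replicate 3 the count of higher genes was 1. *sox32*, the determinant of endoderm in zebrafish, measured 102, 98.4 and 105 CPM in *bmp*-overexpressing embryos, against 170.4, 173 and 168 CPM in *chd*-overexpressing embryos, and 149, 131 and 126 CPM in uninjected embryos (log2 fold change -0.74 ± 0.11 (SE), adjusted p = 7.39e-06). *cxcr4a*, a chemokine receptor of endoderm, measured 213, 215 and 176 CPM in *bmp*-overexpressing embryos, against 409, 385 and 412 CPM in *chd*-overexpressing embryos (log2 fold change -1.002 ± 0.09 (SE), adjusted p = 4.93e-10). The higher genes were *vgll4l* and *gata5*. *vgll4l* measured 194, 170.2 and 184 CPM in *bmp*-overexpressing embryos, against 113, 145 and 114 CPM in *chd*-overexpressing embryos (log2 fold change 0.59 ± 0.11 (SE), adjusted p = 3.77e-04). For *gata5* the call was lost in 2 refits (adjusted p = 0.0539 without *bmp*-overexpressing replicate 2 and 0.0657 without *chd*-overexpressing replicate 3). *sox17*, the downstream marker of endoderm, averaged 0.453 ± 0.402 CPM in *bmp*-overexpressing and 4.63 ± 2.16 CPM in *chd*-overexpressing embryos and was not called (adjusted p = 0.133, or 0.0101 with limma-trend).

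Nodal pathway genes were lower in 7 of 19 cases and higher in 3, with a median of -0.07. With 1 library left out, the median lay between -0.19 (without *chd*-overexpressing replicate 1) and 0.01 (without *bmp*-overexpressing replicate 3). *tdgf1*, the Nodal co-receptor also known as one-eyed pinhead, measured 251, 251 and 232 CPM in *bmp*-overexpressing embryos, against 629.8, 585 and 627 CPM in *chd*-overexpressing embryos (log2 fold change -1.33 ± 0.08 (SE), adjusted p = 2.56e-14). The Nodal ligand *ndr2* was lower (log2 fold change -0.70, adjusted p = 0.0158), a call lost in 2 refits (adjusted p = 0.136 without *bmp*-overexpressing replicate 3 and 0.126 without *chd*-overexpressing replicate 3), and *ndr1* was not called (log2 fold change 0.33, adjusted p = 0.553). *acvr1ba*, a type I receptor gene, was higher (log2 fold change 0.41, adjusted p = 0.00146).

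FGF genes were lower in 9 of 24 cases and higher in 1, with a median of -0.26, although without *chd*-overexpressing replicate 3 the count of lower genes was 4. The median was -0.53 without *chd*-overexpressing replicate 1. *spry4*, a feedback inhibitor, measured 2.05, 4.66 and 3.42 CPM in *bmp*-overexpressing embryos, against 8.96, 15.2 and 15.6 CPM in *chd*-overexpressing embryos (log2 fold change -1.98 ± 0.44 (SE), adjusted p = 0.00338). *dusp4*, a phosphatase of MAP kinases, measured 27.1, 23.6 and 23.2 CPM in *bmp*-overexpressing embryos, against 50.6, 65.1 and 76.2 CPM in *chd*-overexpressing embryos (log2 fold change -1.38 ± 0.19 (SE), adjusted p = 3.60e-06). Of the receptors, *fgfr1a* was lower (log2 fold change -1.09, adjusted p = 2.65e-04) and *fgfr4* higher, at 436, 427 and 423 CPM in *bmp*-overexpressing embryos, against 249, 272 and 259 CPM in *chd*-overexpressing embryos (log2 fold change 0.73 ± 0.08 (SE), adjusted p = 2.86e-08). *fgf8a*, a ligand of the margin, averaged 65.9 ± 1.68 CPM in *bmp*-overexpressing and 69.9 ± 5.46 CPM in *chd*-overexpressing embryos and was not called.

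Canonical Wnt genes were lower in 10 of 31 cases and higher in 2, with a median of 0.06. The median with 1 library left out lay between -0.02 (without *bmp*-overexpressing replicate 1) and 0.09 (without *chd*-overexpressing replicate 1). *fzd8a*, a Frizzled receptor gene, measured 15.7, 13.5 and 6.77 CPM in *bmp*-overexpressing embryos, against 96.1, 78.8 and 102 CPM in *chd*-overexpressing embryos (log2 fold change -3.02 ± 0.24 (SE), adjusted p = 9.30e-11), and *fzd8b* measured 5.93, 11.7 and 6.93 CPM in *bmp*-overexpressing embryos, against 50.6, 39.2 and 44.8 CPM in *chd*-overexpressing embryos (log2 fold change -2.50 ± 0.27 (SE), adjusted p = 6.42e-08). *sfrp1a*, a secreted antagonist, measured 9.44, 12.9 and 8.04 CPM in *bmp*-overexpressing embryos, against 72.4, 63.5 and 54.8 CPM in *chd*-overexpressing embryos (log2 fold change -2.62 ± 0.25 (SE), adjusted p = 2.31e-09). *sp5l*, a zinc finger target of Wnt, measured 134, 111 and 91.6 CPM in *bmp*-overexpressing embryos, against 338, 273 and 298 CPM in *chd*-overexpressing embryos (log2 fold change -1.44 ± 0.11 (SE), adjusted p = 5.57e-11). The Tcf repressors *tcf7l1a* and *tcf7l1b* fell by 1.04 and 0.90 on the log2 scale. Beside *wnt8-2*, the higher gene was *lef1*, a transcription factor of Wnt signaling, at 71.0, 57.4 and 76.8 CPM in *bmp*-overexpressing embryos, against 22.6, 38.4 and 36.8 CPM in *chd*-overexpressing embryos (log2 fold change 1.09 ± 0.18 (SE), adjusted p = 9.99e-05). *axin2*, a common readout of the pathway, averaged 39.8 ± 0.894 CPM in *bmp*-overexpressing and 35.5 ± 3.26 CPM in *chd*-overexpressing embryos and was not called.

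Planar polarity and convergent extension genes were lower in 5 of 28 cases and higher in 2, with a median of -0.10. With 1 library left out, the median lay between -0.08 (without *bmp*-overexpressing replicate 2) and 0.01 (without *chd*-overexpressing replicate 1). Leaving out any *bmp*-overexpressing library, or *chd*-overexpressing replicate 3, gave 3 lower genes. *wnt5b* measured 46.8, 40.5 and 37.7 CPM in *bmp*-overexpressing embryos, against 12.5, 11.3 and 19.3 CPM in *chd*-overexpressing embryos (log2 fold change 1.498 ± 0.23 (SE), adjusted p = 2.40e-05), with a locus that overlaps *fbxl14b*. *celsr2*, a Flamingo cadherin, measured 74.4, 106 and 67.8 CPM in *bmp*-overexpressing embryos, against 32.1, 33.1 and 34.1 CPM in *chd*-overexpressing embryos (log2 fold change 1.31 ± 0.18 (SE), adjusted p = 3.13e-06). *has2*, which makes hyaluronan, measured 31.2, 24.6 and 18.9 CPM in *bmp*-overexpressing embryos, against 86.5, 74.1 and 66.0 CPM in *chd*-overexpressing embryos (log2 fold change -1.59 ± 0.19 (SE), adjusted p = 1.91e-07). *wnt11* passed the threshold narrowly (log2 fold change -0.27, adjusted p = 0.0462) and not in most refits (adjusted p = 0.158, 0.0831 and 0.0844 without *bmp*-overexpressing replicates 1, 2 and 3 and 0.103 and 0.259 without *chd*-overexpressing replicates 2 and 3 and 0.0865 with limma-trend and 0.0747 with all 3 groups in the fit).

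388 genes were called between the injected groups and in neither comparison with uninjected embryos, 2.32% of those tested and 46.0% of those called. A gene not tested in a comparison with uninjected embryos counted as not called in it. Of the 388, 2 were not tested for *bmp*-overexpressing and 8 for *chd*-overexpressing embryos. Fitting all 3 groups together gave 249 such genes among 720 called. Leaving out uninjected replicate 1, which stood apart on the second principal component, gave 290, an alternative chosen after seeing the data. Of the 388 genes, 140 were higher and 248 lower in *bmp*-overexpressing embryos. By the same test 528 genes (3.15% of those tested) were called between *bmp*-overexpressing and uninjected embryos and 148 (0.892%) between *chd*-overexpressing and uninjected embryos. The 3 comparisons share samples, and missing the threshold in 2 of them does not show that a gene equaled the uninjected level. The differences of these 388 genes were small, with a median size of 0.66 on the log2 scale against 1.26 for the other called genes. Choosing genes that missed the threshold against uninjected embryos favors small differences. In 372 of the 388 genes the mean of uninjected embryos lay between those of the injected groups. The same held for 85.4% of all called genes and 37.1% of all genes tested. The way the 388 were chosen favors this pattern. 219 of the 388 had an unadjusted limma p under 0.05 for *bmp*-overexpressing and 165 for *chd*-overexpressing against uninjected embryos. 50, all tested in both comparisons, had neither. 107 of the 388 were called between the injected groups in all 12 refits, but of those 50 only *LOC108190072* was.

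Among the other 455 called genes, 334 were also called for *bmp*-overexpressing against uninjected embryos alone, 56 for *chd*-overexpressing against uninjected embryos alone and 65 in both comparisons. Of these 65, 64 moved in opposite directions from the uninjected level, a pattern favored by their choice among genes called between the injected groups. The genes called in both had the largest differences between the injected groups, with medians of 3.24 for 23 higher genes and -2.17 for 42 lower genes. Opposite moves add up in that comparison, so the same choice favors large differences.

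33 of the 388 genes were members of the lists, out of 150 called members. Of all called genes 46.0% belonged to the 388, a larger share than among called list members. Endoderm was represented by *sox32*, *gata5*, *gata6*, *vgll4l* and *s1pr5a*. *gata6*, an endoderm and heart GATA factor, measured 216, 262 and 207 CPM in *bmp*-overexpressing embryos, against 295, 302 and 309 CPM in *chd*-overexpressing embryos, and 270.4, 270.2 and 269 CPM in uninjected embryos (log2 fold change -0.40 ± 0.09 (SE), adjusted p = 0.00421). *s1pr5a* measured 38.9, 34.6 and 32.7 CPM in *bmp*-overexpressing embryos, against 85.1, 62.6 and 61.0 CPM in *chd*-overexpressing embryos, and 40.3, 44.6 and 50.7 CPM in uninjected embryos (log2 fold change -0.95 ± 0.17 (SE), adjusted p = 1.84e-04). For *sox32* the 2 steps were of similar size (adjusted p = 0.0592 for *bmp*-overexpressing and 0.208 for *chd*-overexpressing against uninjected embryos).

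Axial mesendoderm contributed *foxa*, *dkk1b* and *six3b*. *foxa*, a forkhead gene of endoderm and axial mesoderm, measured 48.5, 44.1 and 50.8 CPM in *bmp*-overexpressing embryos, against 100.3, 94.5 and 93.8 CPM in *chd*-overexpressing embryos, and 62.4, 73.4 and 66.6 CPM in uninjected embryos (log2 fold change -1.01 ± 0.14 (SE), adjusted p = 2.88e-06). In none of the 3 groups did the *foxa* libraries overlap with those of another group, although neither step from the uninjected level was called (adjusted p = 0.0577 for *bmp*-overexpressing and 0.0656 for *chd*-overexpressing against uninjected embryos). *dkk1b*, the Wnt antagonist of the prechordal plate, measured 24.7, 22.0 and 17.1 CPM in *bmp*-overexpressing embryos, against 40.2, 43.8 and 51.7 CPM in *chd*-overexpressing embryos, and 31.6, 23.4 and 31.8 CPM in uninjected embryos (log2 fold change -1.10 ± 0.20 (SE), adjusted p = 2.33e-04). *her5*, a repressor at the presumptive midbrain-hindbrain boundary, measured 2.12, 2.0 and 1.11 CPM in *bmp*-overexpressing embryos, against 15.4, 16.6 and 12.7 CPM in *chd*-overexpressing embryos, and 4.92, 8.95 and 8.38 CPM in uninjected embryos (log2 fold change -3.04 ± 0.54 (SE), adjusted p = 2.53e-04).

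FGF signaling contributed 5 lower genes. *il17rd*, the FGF inhibitor also known as Sef, measured 84.0, 78.6 and 62.5 CPM in *bmp*-overexpressing embryos, against 128, 115 and 107 CPM in *chd*-overexpressing embryos, and 86.6, 109 and 82.5 CPM in uninjected embryos (log2 fold change -0.63 ± 0.13 (SE), adjusted p = 0.00156). *fgf3*, a ligand, measured 6.29, 8.33 and 6.45 CPM in *bmp*-overexpressing embryos, against 14.8, 15.3 and 29.0 CPM in *chd*-overexpressing embryos, and lost its call without *chd*-overexpressing replicate 3 (adjusted p = 0.0772 without *chd*-overexpressing replicate 3). *etv4*, *spry1* and *fgfr2* were the others. Their log2 fold changes were -0.44, -1.08 and -1.21, and each lost its call in at least 1 refit. For *etv4*, adjusted p = 0.0874 without *chd*-overexpressing replicate 3. For *spry1*, adjusted p = 0.0722 without *bmp*-overexpressing replicate 1 and 0.0688 and 0.0528 without *chd*-overexpressing replicates 2 and 3. For *fgfr2*, adjusted p = 0.166 and 0.124 without *bmp*-overexpressing replicates 1 and 3 and 0.084 and 0.155 without *chd*-overexpressing replicates 1 and 3 and 0.0914 with no low-count filter and 0.0599 with all 3 groups in the fit.

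Retinoic acid genes contributed *rdh10a*, *rdh10b* and *raraa*, all lower. *rdh10a*, an enzyme of retinal synthesis, measured 46.8, 39.2 and 36.2 CPM in *bmp*-overexpressing embryos, against 76.7, 62.9 and 72.1 CPM in *chd*-overexpressing embryos, and 40.5, 53.2 and 45.3 CPM in uninjected embryos (log2 fold change -0.80 ± 0.15 (SE), adjusted p = 5.72e-04). *raraa*, a retinoic acid receptor gene, measured 11.3, 12.7 and 10.99 CPM in *bmp*-overexpressing embryos, against 23.5, 26.9 and 25.9 CPM in *chd*-overexpressing embryos (log2 fold change -1.10 ± 0.24 (SE), adjusted p = 0.00254). *pcdh8*, a protocadherin of paraxial mesoderm, measured 35.4, 36.8 and 26.5 CPM in *bmp*-overexpressing embryos, against 60.4, 52.4 and 72.3 CPM in *chd*-overexpressing embryos (log2 fold change -0.93 ± 0.17 (SE), adjusted p = 3.90e-04). The pluripotency factors *nanog* and *sox19b* were lower as well. *nanog* measured 170.5, 165 and 185 CPM in *bmp*-overexpressing embryos, against 218, 250.4 and 271 CPM in *chd*-overexpressing embryos, and 225, 202 and 184 CPM in uninjected embryos (log2 fold change -0.51 ± 0.10 (SE), adjusted p = 6.86e-04). *sox19b* measured 31.0, 19.1 and 25.2 CPM in *bmp*-overexpressing embryos, against 44.5, 41.0 and 52.5 CPM in *chd*-overexpressing embryos, and 35.4, 39.1 and 32.1 CPM in uninjected embryos (log2 fold change -0.93 ± 0.19 (SE), adjusted p = 0.00163).

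**Figure D5:**
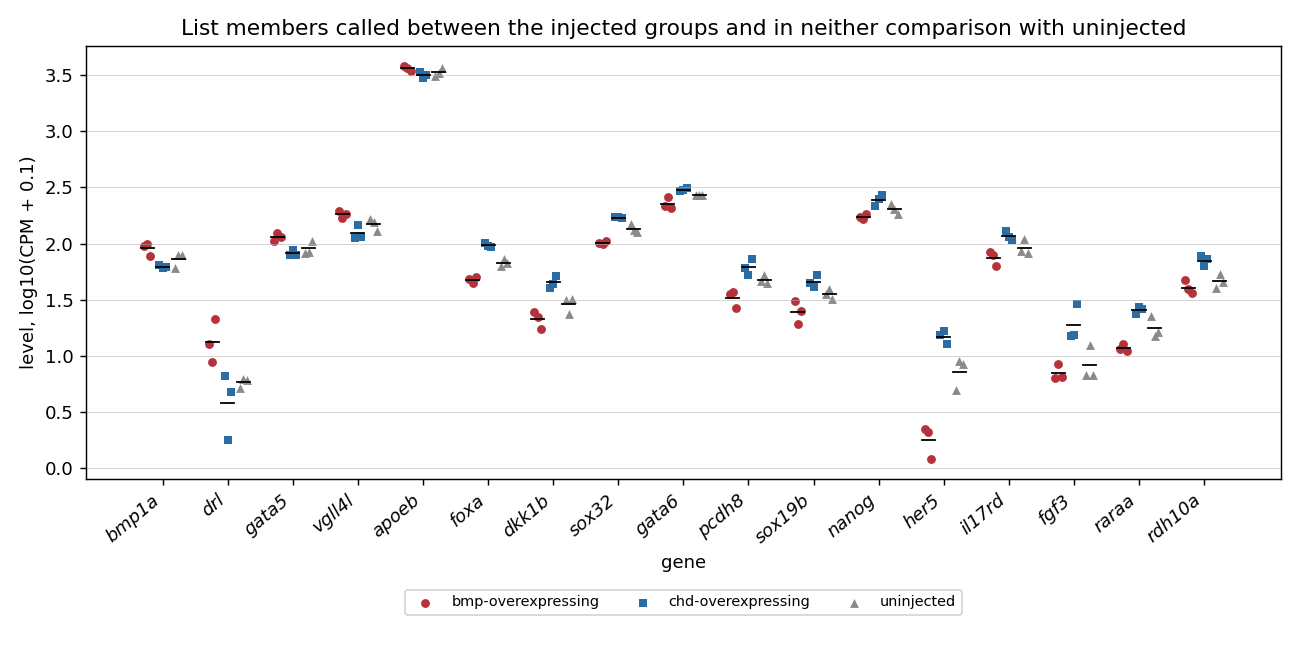
Level of 17 list members that were called between the injected groups and in neither comparison with uninjected embryos (y axis, log10 of CPM plus 0.1), for *bmp*-overexpressing (red circles), *chd*-overexpressing (blue squares) and uninjected embryos (grey triangles), with black bars for the mean of 3. *her5*, with a log2 fold change of -3.04, shows the widest gap between red and blue points.

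Those of the 388 genes with a mean of at least 1 CPM over the 6 injected libraries were ranked. Their 10 largest differences were, in order of size, in *cyth4b*, *LOC101886517*, *six3b*, *hmx4*, *ascl1b*, *LOC108179926*, *golim4b*, *pls3*, *LOC108181517* and *adamts1*. All were of low abundance. *cyth4b*, a cytohesin gene, measured 3.51, 7.06 and 3.58 CPM in *bmp*-overexpressing embryos, against 0, 0 and 0 CPM in *chd*-overexpressing embryos, and 0.0656, 0.129 and 1.08 CPM in uninjected embryos, at least 62.4-fold higher in *bmp*- than in *chd*-overexpressing embryos at the 3-count floor. *hmx4*, a homeobox gene, measured 3.73, 6.0 and 4.06 CPM in *bmp*-overexpressing embryos, against 0, 0 and 0.230 CPM in *chd*-overexpressing embryos, and 0, 0.172 and 0.144 CPM in uninjected embryos. *ascl1b*, a proneural factor, measured 3.29, 1.47 and 1.91 CPM in *bmp*-overexpressing embryos, against 0, 0 and 0 CPM in *chd*-overexpressing embryos, and 0.590, 0.731 and 0.433 CPM in uninjected embryos. *adamts1*, a secreted protease gene, measured 5.56, 5.80 and 5.65 CPM in *bmp*-overexpressing embryos, against 0.0793, 0 and 0.575 CPM in *chd*-overexpressing embryos, and 0.0656, 2.80 and 1.66 CPM in uninjected embryos. All of these but *six3b* lost their call without each of the *chd*-overexpressing libraries in turn. Over 12 refits the highest adjusted p was 0.147 for *cyth4b*, 0.271 for *hmx4*, 0.292 for *ascl1b*, 0.261 for *adamts1* and, at the top, 0.361 for *pls3*.

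*rbm4.3*, *msantd1*, *slc26a1*, *ak3*, *vcana*, *insb* and *arhgef37*, with *foxa*, *sox32* and *eef1a1l1*, had the 10 smallest adjusted p-values among the 388 genes and were chosen after their values were seen. 9 of the 10 were called in every refit, which their choice by small p favors. All but *eef1a1l1* also had an unadjusted limma p under 0.05 in both comparisons with uninjected embryos. Some missed the adjusted threshold there narrowly. For *insb* the adjusted p was 0.0508 for *bmp*-overexpressing against uninjected embryos. For *slc26a1* it was 0.0651 for *bmp*-overexpressing and 0.0658 for *chd*-overexpressing against uninjected embryos. *vcana*, which encodes the matrix proteoglycan versican, measured 10.2, 6.06 and 8.76 CPM in *bmp*-overexpressing embryos, against 30.3, 23.8 and 27.0 CPM in *chd*-overexpressing embryos, and 12.8, 16.1 and 22.2 CPM in uninjected embryos (log2 fold change -1.74 ± 0.28 (SE), adjusted p = 4.08e-05). *slc26a1*, a sulfate transporter gene in the list of the yolk syncytial layer, measured 19.8, 16.6 and 26.1 CPM in *bmp*-overexpressing embryos, against 56.7, 70.4 and 44.0 CPM in *chd*-overexpressing embryos, and 28.8, 32.5 and 40.1 CPM in uninjected embryos (log2 fold change -1.40 ± 0.21 (SE), adjusted p = 1.68e-05). *msantd1* was the 1 higher gene of this set, at 181, 154 and 162 CPM in *bmp*-overexpressing embryos, against 108, 96.5 and 91.4 CPM in *chd*-overexpressing embryos, and 118, 128 and 144 CPM in uninjected embryos (log2 fold change 0.76 ± 0.11 (SE), adjusted p = 1.54e-05). *eef1a1l1*, a translation elongation factor gene, had a log2 fold change of -0.13 and lost its call in 1 refit (adjusted p = 0.196 with limma-trend).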

How the data were processed

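Poly(A) RNA of 9 samples was sequenced on a NextSeq 500 with a non-directional kit. Per the submitters' processing notes, the authors used bcl2fastq 2.17.1.14, DESeq 1.12.0, Cuffdiff 2.1.1, Cufflinks, edgeR 3.2.3, HTSeq, STAR 2.4.1b and the build GRCz10. The deposited tables hold raw read counts per gene, with commas as digit separators, and the authors' own fold changes and p-values, which were not used. Here the commas were removed. Because of them the unit was recorded as other than counts, and limma 3.58.1 (voom, R 4.3.3) was used in place of a count model, with TMM factors trimming 30% of ratios and 5% of levels and a filter of 10 counts at the median depth in 3 libraries and 15 in total. Of 41977 rows, 27441 had a count in the 6 injected libraries, 165 of them joined several genes and 289 carried a repeated name. Only the 2 groups compared entered each fit. CPM used TMM factors over 9 libraries. The fit was tested on simulated counts. Tables were handled in Python 3.11.15 with pandas 2.3.3, and plots drawn with matplotlib 3.10.9.

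The members, the 28 gene lists and the tests were chosen with earlier results of these data known. Of 583 listed names, 15 had no row. Named genes were the injected genes, up to 5 called members per list and direction with the largest differences, the 10 largest differences per direction with at least 5 CPM in the higher group and no overlap, the 10 largest with at least 1 CPM and all list members among genes called between the injected groups alone, and genes the study names. *smad5*, *ism1*, *lft2*, *ndr2*, *otx1a*, *foxb1a*, *irx7*, *dld*, *tcf7l1a* and *tcf7l1b* were chosen after their values were seen. Replicates differed far beyond sampling noise, with a chi-square per degree of freedom of at least 11.4. A single value of 3 against 3 libraries cannot go below an exact two-sided permutation p of 0.1. Some items are not reported here.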

Additional observations from a re-analysis of the deposited data

How the results depend on the processing

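Of 162 named genes called with limma, 120 were called in every refit made (12, or 11 for the injected genes), and none of the 162 changed sign. Leaving out 1 injected library gave 223 to 380 higher genes, 359 to 507 lower genes and 283 to 395 genes called between the injected groups alone. An adjusted p under 0.01 gave 244 higher, 313 lower and 243 such genes, and a fold threshold of a log2 fold change of 1 gave 197, 205 and 185. These cuts applied to each of the 3 comparisons, and only 160 of the 243 and 116 of the 185 were among the 388. Fitting all 3 groups together gave 249 such genes, and asking for an unadjusted p of at least 0.05 in both comparisons with uninjected embryos gave 50. Leaving out 1 uninjected library, an alternative chosen after seeing the data, gave 290 to 440. The 290 were found without uninjected replicate 1, and 270 of them were among the 388. No low-count filter, RLE normalization, limma-trend and leaving out *bmp2b* and *chd* kept all 3 counts within 1.5 times. The members changed more: of the 388 genes, 257, 376, 298 and 386 stayed called between the injected groups alone, in that order of settings. Same-numbered libraries of the injected groups correlated by 0.01, 0.02 and 0.01 in their deviations, so the numbers were not taken as pairs, and a replicate block gave 435 higher, 580 lower and 413 such genes. Among genes not called, the log2 fold change turned negative without 1 library in *acvr1l* (-0.021 to 0.16), *bmpr1aa* (-0.052 to 0.19), *cldne* (-0.0056 to 0.042) and *id3* (-0.062 to 0.34). Depth limited genes of low abundance: the median SE was 1.46 under 1 CPM and 0.10 over 100 CPM, with 0.261% and 14.3% called.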

Other observations

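Genes tied to genome activation and pluripotency were lower in 5 of 16 cases and higher in 1, with a median log2 fold change of -0.33, which was -0.52 without *chd*-overexpressing replicate 1. Without *bmp*-overexpressing replicate 2 the count of higher genes was 2. *mycn*, a Myc proto-oncogene, measured 11.4, 8.79 and 8.2001 CPM in *bmp*-overexpressing embryos, against 72.3, 60.02 and 54.5 CPM in *chd*-overexpressing embryos, and 36.7, 34.7 and 40.6 CPM in uninjected embryos (log2 fold change -2.70 ± 0.25 (SE), adjusted p = 1.48e-09). Genes of cell migration were higher in 3 of 11 cases and lower in 2. *apela*, the peptide ligand of the apelin receptors, measured 288, 251 and 285 CPM in *bmp*-overexpressing embryos, against 197, 193 and 190.3 CPM in *chd*-overexpressing embryos (log2 fold change 0.51 ± 0.09 (SE), adjusted p = 2.53e-04), and *ackr3b*, a chemokine scavenger receptor, measured 62.5, 59.2 and 62.5 CPM in *bmp*-overexpressing embryos, against 35.9, 39.4 and 28.5 CPM in *chd*-overexpressing embryos (log2 fold change 0.89 ± 0.16 (SE), adjusted p = 3.52e-04). The apelin receptor genes were not called. Retinoic acid genes were higher in 2 of 16 cases and lower in 5, the higher ones being *crabp2b* and the receptor gene *rarga*, which lost its call without *chd*-overexpressing replicate 3 (adjusted p = 0.12 without *chd*-overexpressing replicate 3).

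Germ plasm and primordial germ cell genes showed no call in 15 tested, with 0 at an unadjusted p under 0.05 and 0 by limma-trend. With 5.04% of all genes tested called, 0 calls among 15 genes says little. Their summed level ranged from 1183 to 1368 CPM in *bmp*-overexpressing and from 1168 to 1310.0 CPM in *chd*-overexpressing libraries. *ddx4*, the germ cell gene vasa, averaged 203 ± 16.2 CPM in *bmp*-overexpressing and 217 ± 4.02 CPM in *chd*-overexpressing embryos. Yolk syncytial layer genes were higher in 2 of 13 cases and lower in 5, and the transcription factor gene *mxtx2* that is used to mark the layer was not called (log2 fold change -0.41, adjusted p = 0.564). Without *bmp*-overexpressing replicate 2 or *chd*-overexpressing replicate 3 the count of higher genes was 1. Of 7 muscle genes tested with limma, none was called, with 0 at an unadjusted p under 0.05 and 0 by limma-trend, which in so few genes says as little.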
